A study of Mus musculus with 52 samples.

Results

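The circadian clock genes described here are 10 protein-coding genes, Arntl, Clock, Npas2, Cry1, Per1, Per2, Per3, Nr1d1, Dbp and Ciart, out of 39144 genes listed in the expression tables of the Tug1 knockout mouse. They were taken by name from the testes table and from each tissue of the second table, and all 10 are listed in all 8 tissues. RNA was sequenced from polyA-selected transcripts of male wild-type mice and of male Tug1-/- mice, homozygous for the strain Tug1_tm1.1Vlcg, in which a lacZ reporter replaces the gene body of the long noncoding RNA Tug1. There were 3 samples of each genotype for spleen, liver, heart, eyes and MEFs (fibroblasts cultured from male littermate embryos), 3 wild-type and 2 Tug1-/- samples for prostate, and 4 wild-type, 4 Tug1-/- and 3 rescue samples for testes. Brain was listed in the same table but comes from libraries that are not among the 52 samples of the series, so its sample number is not given here, and 6 F1 hybrid testes were not analysed here.

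The organs and MEFs of both genotypes carry a mixed C57BL/6J and 129S6 background without the Neo cassette. In testes the wild-type mice are labelled C57BL/6J without Neo, while the Tug1-/- and rescue mice are labelled as carrying Neo and LacZ. The paper, by contrast, describes a knockout colony bred to be without Neo. If the labels hold, the Tug1 deletion and the Neo cassette cannot be told apart in testes. Rescue mice were Tug1-/-, carried the transgene tg(Tug1) with CAGs-rtTA3, a doxycycline-dependent activator driven by a broadly active promoter, and were fed doxycycline. The hour of collection, and the age of the mice whose organs were sequenced, were not given in the sources used here. For genes with a daily rhythm this is a central limit, since genotype and hour of collection cannot be told apart if they differed. The tables hold the mean of each group in TPM (a transcript abundance that allows for library size and for the length of the gene). They hold no value of any sample, so no SD, interval or test was computed here. The authors' own test results, listed beside the means, were not used, so no difference below is set against the spread between mice.

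The clock runs as a feedback loop in almost every cell. Arntl encodes BMAL1, which pairs with CLOCK or, in some tissues, with its relative NPAS2, and the pair binds E-box sequences to switch on Per, Cry, Nr1d1, Dbp and Ciart. PER and CRY proteins then block the pair, as does CIART, while NR1D1 (REV-ERB alpha) represses Arntl and DBP activates further genes through D-box sequences. In mouse liver, heart and many other organs Arntl and Npas2 RNA therefore peak at nearly the opposite time of day from Nr1d1, Dbp, Ciart and the Per genes, Clock cycles weakly, and Cry1 peaks late. Per1 and Per2 also respond to signals from outside the loop, among them glucocorticoids, cyclic AMP and heat.

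The positive limb genes are Arntl (ENSMUSG00000055116.8, chr7:113207465-113314126, plus strand), Clock (ENSMUSG00000029238.11, chr5:76209868-76304792, minus strand) and Npas2 (ENSMUSG00000026077.15, chr1:39193731-39363236, plus strand), in build GRCm38. The repressors and outputs are Cry1 (ENSMUSG00000020038.10, chr10:85131700-85185064, minus), Per1 (ENSMUSG00000020893.17, chr11:69095217-69109960, plus), Per2 (ENSMUSG00000055866.9, chr1:91415982-91459324, minus), Per3 (ENSMUSG00000028957.12, chr4:151003652-151044665, minus), Nr1d1 (ENSMUSG00000020889.11, chr11:98767932-98775333, minus), Dbp (ENSMUSG00000059824.12, chr7:45705088-45710203, plus) and Ciart (ENSMUSG00000038550.10, chr3:95878503-95882251, minus). Several members overlap another gene, which matters for the counting of reads. Ciart lies wholly within the span of the antisense RNA gene C920021L13Rik, Nr1d1 shares 1075 bases with Thra on the other strand, Dbp shares 737 bases with Sphk2 on the other strand, and Per3 lies within the span of Camta1 on its own strand. The library kit did not mark strand, so reads from the shared exon stretches of opposite-strand genes cannot be told apart.

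E-box and D-box letters, through which the loop acts, are shown for each member whose promoter window holds them. RefSeq promoter windows (GRCm38.p6) were matched for 9 of 10 members, all but Per2, with 13 windows in all, and the 250 bases upstream of each start were searched on both strands for the E-box CACGTG, the variant CACGTT (E'-box), the cyclic AMP element TGACGTCA, the D-boxes TTATGTAA, TTATGCAA and TTACGTAA, and the nuclear receptor letters AGGTCA. Each line gives 30 bases, 5' to 3' on the strand of the gene, with the matched letters in capitals.
Ciart, E-box 116 bases upstream, chr3:95882327-95882356, minus: tgcatctagagtCACGTGttgccggtaagc
Ciart, E-box 58 bases upstream, chr3:95882269-95882298, minus: cgcagggggaggCACGTGcagaaccgcacg
Ciart, E-box 44 bases upstream, chr3:95882255-95882284, minus: cgtgcagaaccgCACGTGtctgggaggggg
Per1, E-box 166 bases upstream, chr11:69098771-69098800, plus: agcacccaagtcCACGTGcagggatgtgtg
Per1, D-box 24 bases upstream, chr11:69098914-69098943, plus: agggcctggcaTTATGCAAcccgcctccca
Cry1, E-box 60 bases upstream, chr10:85185097-85185126, minus: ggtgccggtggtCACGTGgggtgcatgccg
Cry1, E'-box 79 bases upstream, chr10:85185116-85185145, minus: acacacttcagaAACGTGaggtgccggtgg
Nr1d1, E'-box 28 bases upstream, chr11:98775388-98775417, minus: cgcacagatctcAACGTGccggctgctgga
Per3, D-box 205 bases upstream, chr4:151044852-151044881, minus: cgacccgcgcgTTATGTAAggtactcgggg
Per3, D-box 158 bases upstream, chr4:151044805-151044834, minus: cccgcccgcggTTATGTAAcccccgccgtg

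Of all 32851 promoter windows of the same length, 6.02% held the E-box, 3.85% the E'-box, 1.55% the cyclic AMP element, 1.61% a D-box and 14.0% AGGTCA. Of the 13 member windows, 3 held an E-box, 2 an E'-box and 2 a D-box. Ciart held 3 E-boxes, and Per1 held an E-box and a D-box in the same window. How many of all windows hold such combinations was not counted. The nuclear receptor letters were found in a window of Clock and a window of Per1, and the cyclic AMP element in none of the 13. A match is a description of letters, and the absence of these letters from the upstream bases says nothing on whether a factor binds elsewhere.

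Tissue identity and genotype were checked first. All 24 marker genes were higher in the wild-type mean of their own tissue than in any other tissue, the lowest being Spink1 in prostate at 5.39 TPM. Tug1 was 10.1 to 57.5 TPM in the wild-type means and 0.00832 to 0.885 TPM in the Tug1-/- means, and 1.60 TPM in rescue testes. The mean normalized count of a member per tissue (a mean over all libraries of a comparison, listed for all tissues but testes) ran from 7.44 for Npas2 in liver to 9678 for Nr1d1 in eyes, so most members were well covered. Npas2 was the least covered member in eyes, heart, liver, spleen and MEFs.

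In the wild type, the clock genes differed widely in level between tissues, Npas2 and Arntl most of the 10 and Clock least. Arntl ran from 0.555 TPM in liver and 1.63 in heart through 2.73 in testes, 6.08 in prostate, 10.4 in spleen, 15.2 in MEFs and 18.6 in brain to 34.0 TPM in eyes. Clock ran from 8.36 TPM in heart to 46.1 TPM in brain. Npas2 was at 24.2 TPM in brain, 3.92 in prostate, 2.81 in eyes and 1.54 in testes, and below 1 TPM in heart (0.873), MEFs (0.669), spleen (0.342) and liver (0.0919). Relative to Clock, which encodes the other partner of BMAL1, Npas2 was thus at a ratio of 0.525 in brain and 0.0102 in liver.

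The repressors and outputs were ordered differently. Nr1d1 was the most abundant member in eyes (236 TPM), brain (109.6), heart (89.3), liver (77.1), prostate (51.6) and MEFs (23.2), and Dbp had its highest level in eyes (118 TPM) and its lowest in testes (4.99 TPM). Testes stood apart among the Per genes, with the highest Per1 level of any tissue (82.8 TPM) beside Per2 at 5.00 and Per3 at 4.90 TPM. Cry1, the late-peaking repressor, was also high there at 41.7 TPM, against 5.43 TPM in heart, its lowest tissue. Per3 was highest in eyes at 56.9 TPM and lowest in MEFs at 2.93 TPM, and Ciart ran from 3.43 TPM in spleen to 24.0 TPM in eyes. Without values of single mice, neighbours in these orders cannot be called different.

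**Figure D1:**
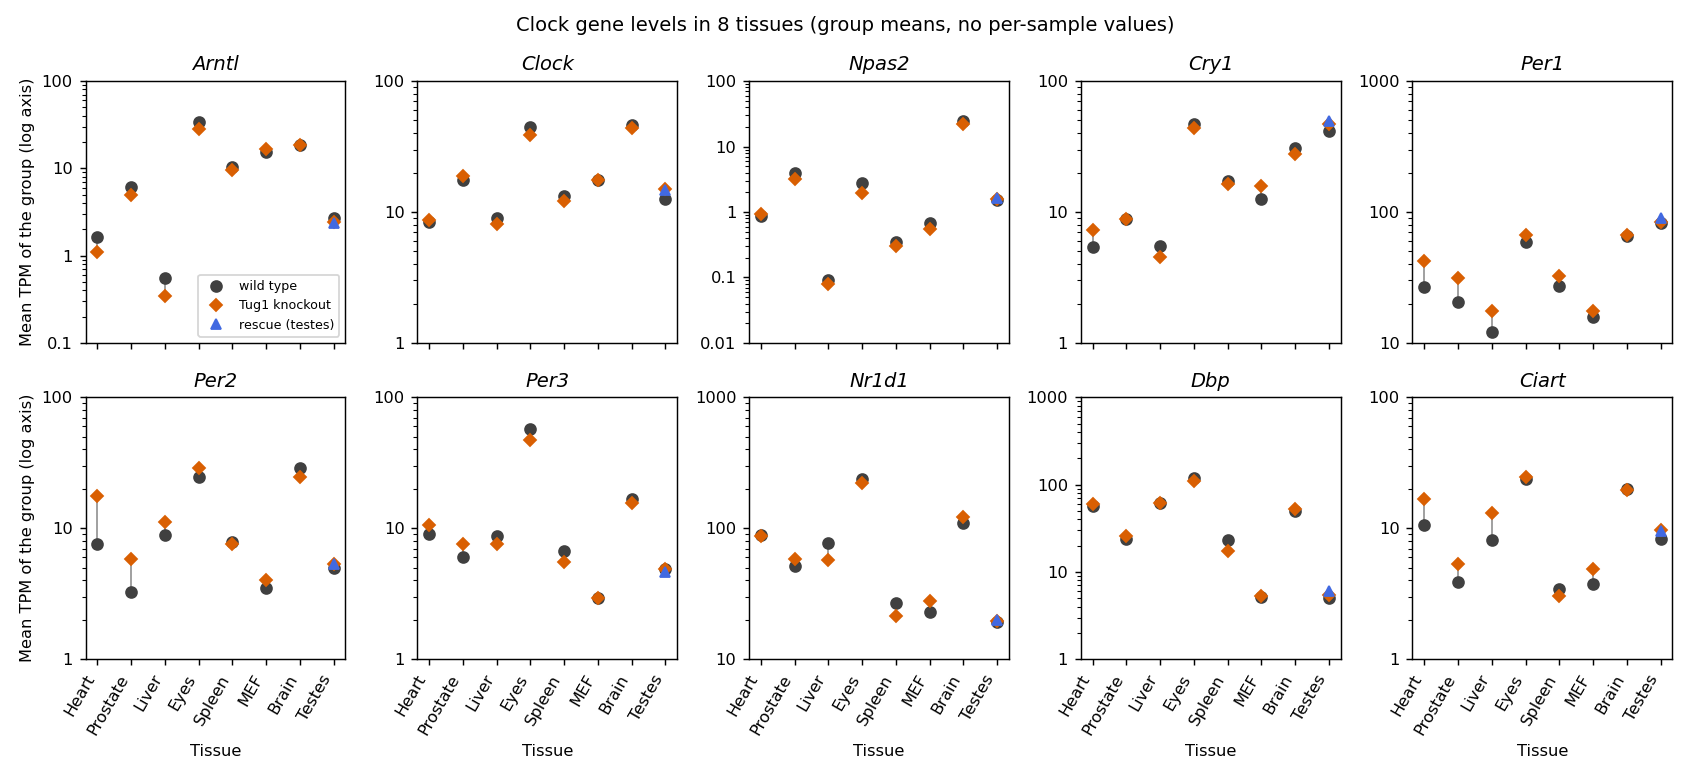
Mean TPM (log axis, whose range differs by panel) of each clock gene by tissue, with wild-type means as circles, Tug1-/- means as diamonds and rescue testes as triangles. Levels differ more between tissues than between genotypes, and wide gaps between genotypes are seen for Per2, Per1 and Ciart in heart, Per2 and Per1 in prostate, and Ciart and Arntl in liver.

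The ratio of Nr1d1 to Arntl gives a reading of the loop that needs no scaling between libraries, since both genes are read in the same groups. In wild-type means it was 1.52 in MEFs, 2.58 in spleen, 5.90 in brain, 6.95 in eyes, 7.06 in testes, 8.49 in prostate, 54.7 in heart and 139 in liver. In Tug1-/- means the ratios were, in the same order, 1.70, 2.26, 6.68, 7.84, 8.07, 11.8, 78.0 and 168. The order of the tissues was the same in both genotypes, and the ratio was higher in the Tug1-/- mean in 7 of 8 tissues, spleen being the exception. In liver it rests on Arntl at 0.555 and 0.344 TPM, both below 1 TPM, while Nr1d1 was lower in Tug1-/- (77.1 and 57.7 TPM). In heart Arntl was also low, at 1.63 and 1.12 TPM.

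**Figure D2:**
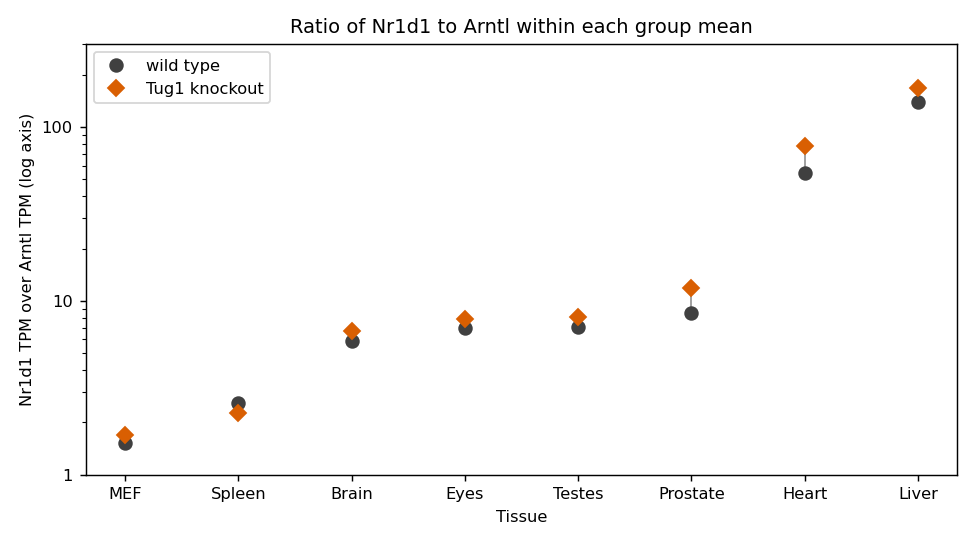
Ratio of mean Nr1d1 TPM to mean Arntl TPM (log axis) within the wild-type group (circles) and the Tug1-/- group (diamonds) of each tissue. Liver and heart sit at 54.7 or above, the other tissues at 11.8 or below. The liver ratios rest on Arntl means of 0.555 and 0.344 TPM.

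The genotypes were compared as log2 ratios of the group means with 0.1 TPM added to each, Tug1-/- over wild type. A gene was counted where either mean was at least 1 TPM, and it is called past 1.5-fold where the ratio reached 1.5 in either direction. Across the 8 tissues 75 of 80 gene and tissue pairs were counted, and 6 were past 1.5-fold, all higher in Tug1-/-. The other 5 pairs, under 1 TPM in both groups, were Arntl in liver and Npas2 in heart, liver, spleen and MEFs.

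Heart held the most calls. Of 9 clock genes counted in heart, 3 were past 1.5-fold higher (Per1, Per2 and Ciart) and 0 lower, beside 2.08% higher and 2.49% lower among all genes counted. In prostate 2 of 10 were higher (Per1 and Per2) and 0 lower, beside 5.32% and 2.67%. In liver 1 of 8 was higher (Ciart) and 0 lower, beside 3.37% and 2.65%. No clock gene was past 1.5-fold in the remaining tissues, where 9 or 10 were counted. The shares of all genes that were higher and lower there were 3.19% and 4.68% in eyes, 5.40% and 5.07% in spleen, 3.82% and 3.91% in MEFs, 2.19% and 3.94% in brain, and 2.75% and 3.51% in testes.

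**Figure D3:**
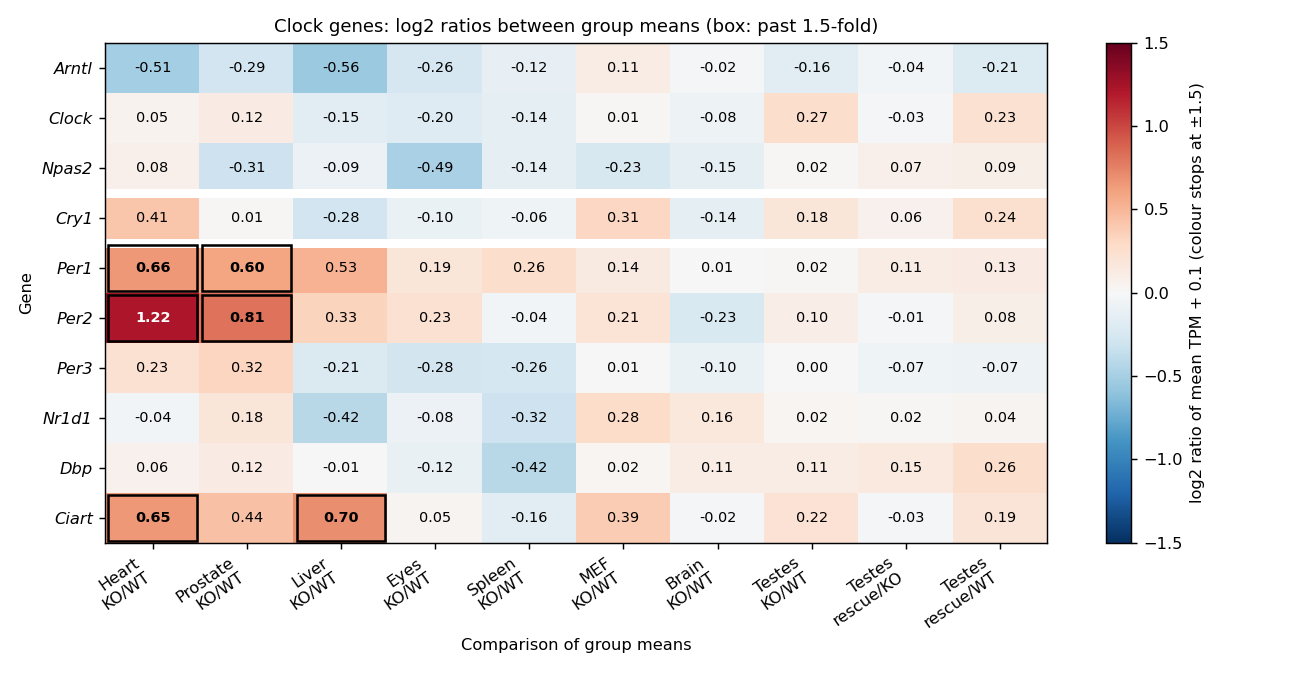
log2 ratios of group means for the 10 clock genes (rows) in 10 comparisons (columns), Tug1-/- (KO) over wild type (WT) for 8 tissues and rescue over each of the other testes groups. Boxed values are past 1.5-fold where the gene is counted, and the 6 boxes all lie in the heart, prostate and liver columns of Per1, Per2 and Ciart.

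Among the positive limb, Arntl was lower in most Tug1-/- means and Clock stayed close to the wild type. In wild-type and Tug1-/- heart Arntl was at 1.63 and 1.12 TPM (log2 ratio -0.51), at 0.555 and 0.344 TPM in liver (-0.56), at 6.08 and 4.95 TPM in prostate (-0.29) and at 34.0 and 28.5 TPM in eyes (-0.26). Its Tug1-/- mean was below the wild-type mean in 7 of 8 tissues, MEFs being the exception (15.2 and 16.5 TPM), although brain turns sign when set relative to the median of all genes, and none of these ratios was past 1.5-fold. The mean normalized count of Arntl in liver was 60.6, the lowest of the 7 tissues where it is listed. Clock ranged from a log2 ratio of -0.20 in eyes to 0.27 in testes (12.5 and 15.0 TPM). Npas2, the alternative partner of BMAL1, had its most distant ratio in eyes, at 2.81 and 1.97 TPM (-0.49), followed by prostate at 3.92 and 3.16 TPM (-0.31).

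The Per genes, which encode the core repressors, differed among themselves. In heart the Per2 means were 7.56 TPM (wild type) and 17.7 TPM (Tug1-/-), a 2.32-fold higher mean, and 0.35% of all genes counted in heart had a ratio at least as high. In prostate Per2 was at 3.29 and 5.86 TPM (1.76-fold), in liver at 8.88 and 11.2 TPM (1.26-fold), and in brain, by contrast, at 28.7 and 24.4 TPM (log2 ratio -0.23). Heart was the tissue where the Per2 means lay farthest apart. Per1 was at 26.9 and 42.5 TPM in heart (1.57-fold), at 20.5 and 31.1 TPM in prostate (1.51-fold) and at 12.2 and 17.6 TPM in liver (1.44-fold). Its Tug1-/- mean was above the wild-type mean in all 8 tissues, but the log2 ratio was 0.01 in brain (65.7 and 66.2 TPM) and 0.02 in testes (82.8 and 84.1 TPM), where it turns sign relative to the median of all genes. Per3, which is dispensable for rhythms in mice, followed neither, with log2 ratios from -0.28 in eyes (56.9 and 46.9 TPM) to 0.32 in prostate (6.03 and 7.57 TPM).

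Nr1d1 and Dbp, the members with the strongest daily swing in most organs, lay near the wild type where Per1 and Per2 did not. Dbp was at 56.9 and 59.5 TPM in heart (log2 ratio 0.06), at 61.6 and 61.2 TPM in liver (-0.01) and at 24.1 and 26.1 TPM in prostate (0.12). Nr1d1 was at 89.3 and 87.0 TPM in heart (-0.04) and at 51.6 and 58.6 TPM in prostate (0.18). In liver it was lower in Tug1-/-, at 77.1 and 57.7 TPM (-0.42). The ratio of Per2 to Dbp within a group was accordingly 0.133 in wild-type and 0.297 in Tug1-/- heart, and 0.137 and 0.224 in prostate. In spleen both outputs had lower Tug1-/- means, with Dbp at 23.4 and 17.4 TPM (-0.42) and Nr1d1 at 26.9 and 21.6 TPM (-0.32). The B cell marker Cd79a was at 1295 and 947.0 TPM in the same comparison, while the T cell marker Cd3e was at 38.1 and 38.2 TPM. Their part in the spleen values was not tested, and in bulk tissue fewer cells of a type and less RNA per cell cannot be told apart.

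Ciart, the repressor with 3 E-boxes in its promoter window, was higher in Tug1-/- liver (8.09 and 13.2 TPM, 1.62-fold) and heart (10.6 and 16.6 TPM, 1.57-fold), and was at 3.89 and 5.33 TPM in prostate (1.36-fold) and 3.73 and 4.90 TPM in MEFs (1.31-fold). In brain and eyes its log2 ratios were -0.02 and 0.05. The overlapping antisense gene C920021L13Rik was at 0.537 and 0.546 TPM in liver and 1.15 and 1.31 TPM in heart, far below Ciart in both genotypes. Cry1 was at 5.43 and 7.26 TPM in heart (log2 ratio 0.41), at 12.6 and 15.7 TPM in MEFs (0.31) and at 5.50 and 4.50 TPM in liver (-0.28), with no call in any tissue.

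Both limbs were then set against each other as the mean log2 ratio of Arntl, Clock and Npas2 and the mean log2 ratio of Per1, Per2, Per3, Nr1d1, Dbp and Ciart. The positive limb minus the other limb was -0.59 in heart (means -0.13 and 0.46), -0.57 in prostate (-0.16 and 0.41), -0.42 in liver (-0.27 and 0.15) and -0.31 in eyes (-0.31 and -0.0030). It was -0.21 in MEFs, -0.07 in brain, -0.04 in testes and 0.02 in spleen. The gap in heart and prostate came mostly from Per1, Per2 and Ciart on the upper side and from Arntl, joined by Npas2 in prostate, on the lower side, while Clock, Nr1d1 and Dbp had log2 ratios between -0.04 and 0.18 in both. The difference thus did not run through all members of a limb. In liver Arntl and Npas2 were both under 1 TPM, and the limb difference there was -0.31 with counted genes alone and -0.26 with a pseudocount of 1 TPM. In MEFs it was -0.11 without Npas2, which was under 1 TPM.

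**Figure D4:**
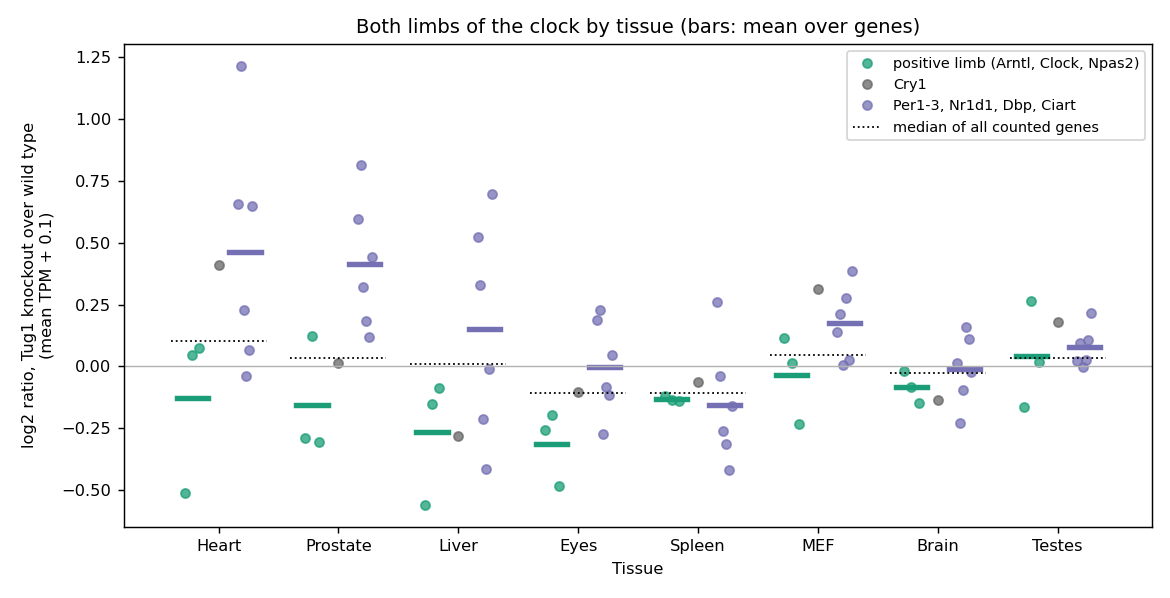
log2 ratio of Tug1-/- over wild-type mean TPM for each clock gene (points) by tissue, with the positive limb at left, Cry1 in the middle and the other limb at right of each tissue, bars at the mean of each limb and a dotted line at the median of all counted genes. The bars lie farthest apart in heart (-0.13 and 0.46) and prostate (-0.16 and 0.41) and close together in spleen, brain and testes, where the limb difference is 0.02, -0.07 and -0.04.

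The median log2 ratio of all counted genes was itself 0.10 in heart, -0.11 in eyes and -0.11 in spleen, and within 0.05 of 0 in the other tissues. Set relative to that median, Per2 in heart (1.11) and prostate (0.78) and Ciart in liver (0.69) stayed past 1.5-fold. Per1 and Ciart in heart (0.55 each) and Per1 in prostate (0.56) fell short of the limit of 0.585, and Arntl in heart passed it on the lower side (-0.62). The sign turned for Clock, Npas2 and Dbp in heart, Cry1 and Nr1d1 in eyes, and Cry1 and Per2 in spleen, as well as for Arntl and Ciart in brain, Cry1 in prostate, and Npas2, Per1 and Nr1d1 in testes. It also turned for Clock, Dbp and Per3 in MEFs. On the centred scale 1.41% of counted genes were higher and 3.21% lower in heart, 4.18% and 3.24% in eyes, and 6.77% and 3.22% in spleen. The shares were 4.88% and 2.95% in prostate, and 3.28% and 2.75% in liver.

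In testes the clock genes of the 3 groups lay close together. In wild-type, Tug1-/- and rescue means, which share groups and are therefore given side by side, Arntl was at 2.73, 2.42 and 2.35 TPM, Clock at 12.5, 15.0 and 14.7 TPM, and Npas2 at 1.54, 1.56 and 1.64 TPM. Per1 was at 82.8, 84.1 and 90.5 TPM, Per2 at 5.00, 5.36 and 5.30 TPM, and Per3 at 4.90, 4.89 and 4.65 TPM. Nr1d1 was at 19.2, 19.6 and 19.8 TPM, Dbp at 4.99, 5.39 and 6.00 TPM, Ciart at 8.27, 9.62 and 9.45 TPM and Cry1 at 41.7, 47.3 and 49.3 TPM. None of the 10 was past 1.5-fold for rescue over Tug1-/- (1.42% of all genes higher, 3.22% lower) or for rescue over wild type (2.79% higher, 5.14% lower). The limb difference was -0.03 for rescue over Tug1-/- and -0.07 for rescue over wild type.

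Beyond the 10 members, 19 further clock genes were read from a list of 9 genes of the second loop and other repressors, 4 genes of the PAR bZIP factors and outputs, and 6 genes of kinases, ubiquitin ligases and partners. In liver 3 of 17 counted were past 1.5-fold, all lower in Tug1-/-, beside 2.65% lower among all counted genes, and the list median was -0.19 against 0.01 for all genes. These were the E-box repressors Bhlhe40 (107 and 66.8 TPM) and Bhlhe41 (3.22 and 1.32 TPM), and Nfil3 (18.3 and 11.6 TPM), which competes with DBP for D-boxes. In heart none of 17 and in prostate none of 16 was past 1.5-fold, with list medians of 0.20 against 0.10 and 0.09 against 0.04 for all genes. Bhlhe41 was also lower in Tug1-/- testes (2.44, 0.827 and 0.606 TPM in wild type, Tug1-/- and rescue). For Tug1-/- over wild-type testes 1 of 17 was lower and 1 higher, beside 3.51% and 2.75% of all counted genes. The BMAL1 relative Arntl2 was lower in Tug1-/- spleen (1.11 and 0.441 TPM) and higher in Tug1-/- MEFs (4.43 and 7.35 TPM). That was 1 of 17 in spleen, beside 5.07% of all counted genes lower, and 1 of 15 in MEFs, beside 3.82% higher. In rescue against wild-type testes Bhlhe40 (7.0 and 4.45 TPM) and the PAR bZIP factor Hlf (2.13 and 1.15 TPM) were lower as well. There 3 of 17 were lower and 1 higher, beside 5.14% and 2.79% of all counted genes. None of the 19 was past 1.5-fold in brain or eyes, or for rescue over Tug1-/- testes.

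Genes induced by glucocorticoids, immediate early genes and genes that follow temperature were read in the same comparisons. These lists were chosen with earlier results of these data known. Their counts beside the shares of all genes are therefore a description and no test. Of 5 genes induced by glucocorticoids, 4 were past 1.5-fold higher in heart, 3 in liver, 3 in prostate, 2 in eyes and 2 in spleen, and none in MEFs (4 counted), brain or testes. The shares of all counted genes that were higher were 2.08% in heart, 3.37% in liver, 5.32% in prostate, 3.19% in eyes and 5.40% in spleen, and the list medians of the log2 ratio were 0.82, 1.16, 0.60, 0.31 and 0.27 in that order. Fkbp5, a chaperone that restrains the glucocorticoid receptor, was at 4.83 and 14.1 TPM in heart, 6.78 and 16.1 TPM in liver, 20.4 and 36.4 TPM in prostate and 28.9 and 55.3 TPM in spleen. Zbtb16 was at 8.87 and 27.5 TPM in heart, 2.20 and 8.02 in liver, 17.7 and 26.9 in prostate, 6.11 and 9.94 in eyes and 2.37 and 4.05 in spleen. Tsc22d3 was at 59.3 and 105 TPM in heart, 48.8 and 109.2 in liver, 31.2 and 50.2 in prostate and 55.3 and 93.1 in eyes, and Sgk1 at 28.5 and 44.1 TPM in heart. Genes of this list thus passed the limit in heart and prostate, where Per1 and Per2 did, and in liver, spleen and eyes. In spleen Per1 was at 27.1 and 32.4 TPM and Per2 at 7.82 and 7.60 TPM, and in eyes Per1 was at 59.0 and 67.2 TPM and Per2 at 24.8 and 29.0 TPM.

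In heart, liver, spleen and eyes the immediate early genes that passed the limit were lower. In heart 3 of 5 counted were past 1.5-fold lower, Fos (14.9 and 6.45 TPM), Egr1 (19.6 and 8.25 TPM) and Nr4a1 (50.5 and 33.2 TPM), and in liver 2 of 5, Fos (1.83 and 1.11 TPM) and Nr4a1 (18.7 and 2.90 TPM), beside 2.49% and 2.65% of all counted genes. Of 6 counted, Fos was lower in spleen (12.4 and 5.19 TPM) and Egr1 in eyes (45.9 and 25.5 TPM), beside 5.07% and 4.68% of all counted genes. The list medians were -0.61 in heart, -0.58 in liver, -0.53 in spleen, -0.42 in eyes, -0.24 in prostate, -0.15 in brain, 0.13 in MEFs and 0.22 in testes. No gene of the list was past the limit in prostate, MEFs or brain, and in testes Fos was higher (0.751 and 1.23 TPM), 1 of 6 beside 2.75% of all counted genes. Of 4 genes that follow temperature, the heat shock chaperone Hsph1 was higher in heart (12.4 and 26.0 TPM), liver (10.3 and 26.0), prostate (25.7 and 55.1) and spleen (42.2 and 106.6). Hspa8 was higher in liver (290.4 and 453 TPM), prostate (445 and 669) and spleen (719 and 1088). Cold-inducible Cirbp was lower in spleen (114 and 71.1 TPM), and no gene of the list was past the limit in eyes, MEFs, brain or testes. The temperature list thus had 1 of 4 higher in heart and 2 of 4 in liver, prostate and spleen, beside 2.08%, 3.37%, 5.32% and 5.40% of all counted genes, with medians of 0.18, 0.35, 0.22 and 0.18. The list joins heat shock and cold-inducible genes, so these medians do not describe a single response. In spleen 1 of 4 was lower, beside 5.07%. Set relative to the median of all genes, Sgk1 in heart (0.53), Zbtb16 in prostate (0.57), Hspa8 in prostate (0.55) and Cirbp in spleen (-0.576) fell short of the limit, while Junb and Egr1 in liver passed it on the lower side (-0.59 each). The part of these other signals in the Per1, Per2 and Ciart values was not tested.

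**Figure D5:**
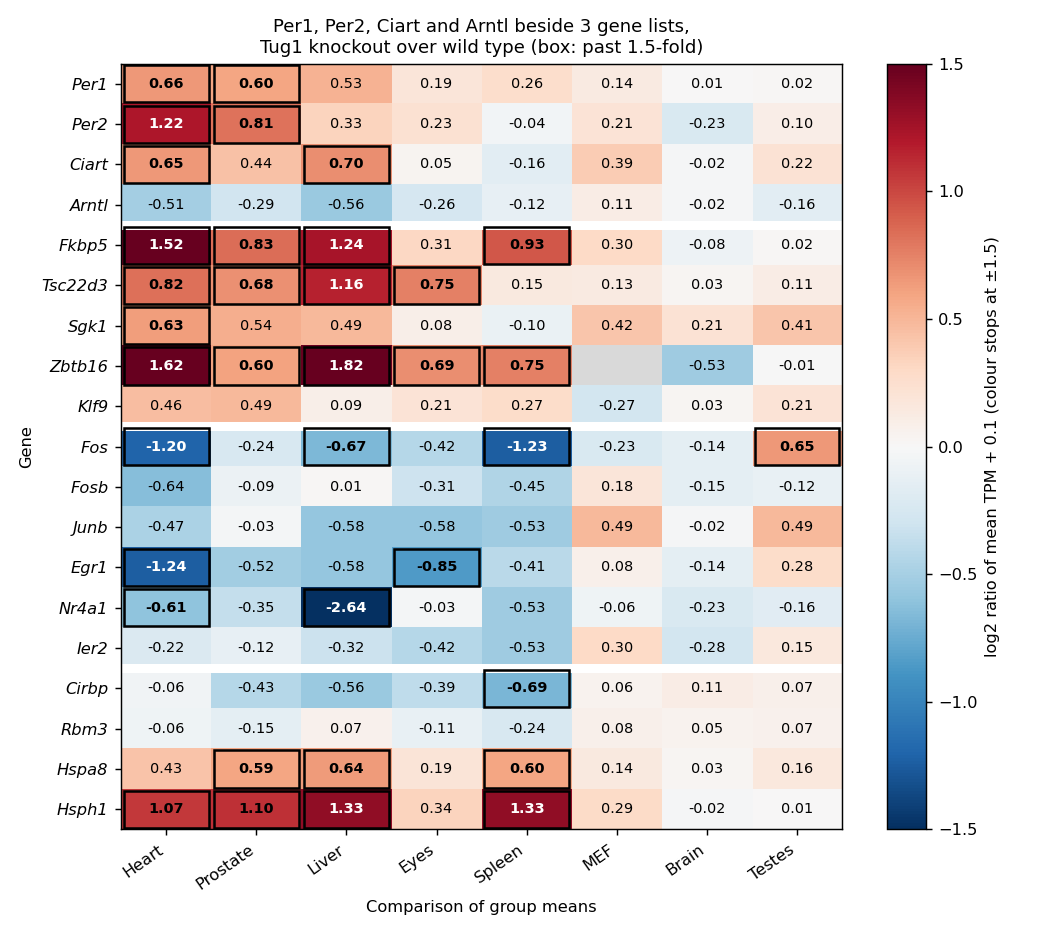
log2 ratio of Tug1-/- over wild-type mean TPM by tissue for Per1, Per2, Ciart and Arntl (top block), glucocorticoid-induced genes, immediate early genes and temperature genes (blocks below), with boxes at values past 1.5-fold where the gene is counted and grey where a gene is not listed. Boxes gather in heart, prostate, liver and spleen, while brain has none and testes has Fos alone.

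The likeness of patterns was described by Pearson's r of the log2 ratios over the 8 tissues, against genes of at least 1 TPM in either group in every tissue. With n = 8 tissues that share no scale, r is a description. Among the members, Per1 (-0.79), Per2 (-0.65) and Ciart (-0.64) ran opposite to Arntl, while Nr1d1 ran with it (0.60). Per3 (-0.15), Dbp (-0.09), Clock (0.10) and Cry1 (0.16) did neither. The share of all genes that reach such r values with Arntl was not computed. Npas2 (-0.28) is not among the genes of at least 1 TPM in every tissue, since it was below 1 TPM in both groups in 4 of the 8. Of 9774 genes, those most like Arntl were Lhfpl2 (0.96), Zfp101 (0.88), Mir22hg (0.86), Taf5 (0.85) and Pot1a (0.85), and those most opposite were Fam98a (-0.97), Sorbs3 (-0.96), Mindy2 (-0.96), Atl2 (-0.95) and Pdgfd (-0.95). Arntl itself was under 1 TPM in liver, so its liver ratio is the 1 of its 8 values that rests on means below that minimum. For Dbp the members most alike were Per3 (0.64), Nr1d1 (0.61) and Clock (0.59), below the PAR bZIP relative Tef at 0.82. Of 9773 genes the most alike with Dbp were Ublcp1 (0.97), Srek1ip1 (0.97), Smad6 (0.97), Fbxl4 (0.96) and Gmfb (0.96), and the most opposite were Pabpc4 (-0.95), Fam220a (-0.94), Fkbp2 (-0.93), Fech (-0.93) and Itga2b (-0.93).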

How the data were processed

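The authors aligned reads to the mouse genome (GRCm38, mm10 in the labels) with STAR, counted uniquely mapped reads with featureCounts, and deposited the mean TPM of each group per gene, with no value per sample. The deposited table of 7 tissues also gives a normalized signal, the mean normalized count over the libraries of a comparison. Depth per sample is unknown. The files also hold the authors' own fold changes, test statistics and p-values from DESeq2, which were not used. The number of columns of per-sample values left unused is 0.

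Ratios were computed as log2((second mean + 0.1)/(first mean + 0.1)), with a minimum of 1 TPM in either group and a limit of 1.5-fold. The members and gene lists were chosen with earlier results of these data known. Named genes were the 10 members, Tug1, the markers, genes of the lists past 1.5-fold where counted, and the 5 highest and 5 lowest r with Arntl and with Dbp. A few genes of these lists are not reported here. Steps were tested on simulated data. Alternatives were other pseudocounts, minimums and folds, centring, and other limb summaries. Scripts ran under Python 3.11.15 with pandas 2.3.3, numpy 2.4.6 and matplotlib 3.10.9.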

Additional observations from a re-analysis of the deposited data

How the results depend on the processing

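No paired analysis was possible because the tables hold group means alone, and leaving out a replicate was not run for the same reason. Over the alternatives run, the limb difference ranged from -0.69 to -0.39 in heart (-0.39 with the median over genes in place of the mean), -0.67 to -0.49 in prostate, -0.50 to -0.26 in liver, -0.32 to -0.24 in eyes and -0.23 to -0.11 in MEFs. The count of clock genes past the limit depended on the fold. With a lower limit of 0.32 on the log2 scale it was 5 in heart (4 higher, and Arntl lower), 4 in liver (3 higher, and Nr1d1 lower), 4 in prostate (all higher), 1 in MEFs (Ciart, higher), 1 in eyes (Npas2, lower) and 1 in spleen (Dbp, lower). At that limit 7.59% of all counted genes were higher and 5.01% lower in heart, 10.0% and 7.52% in liver, and 12.2% and 6.47% in prostate, with 11.4% higher in MEFs, 14.9% lower in eyes and 17.7% lower in spleen. With a limit of 2-fold it was 1 in heart (Per2), 0 in liver and 0 in prostate. In prostate it was 1 with a pseudocount of 1 TPM and 1 after centring on the median of all genes, and in heart it was 2 after centring (Per2 higher, Arntl lower). With a pseudocount of 1 TPM the log2 ratio of Arntl was -0.32 in heart and -0.21 in liver, which follows from its low level there. Leaving out the brain raised the number of genes with r above 0.9 from 1 to 2 for Arntl and from 83 to 231 for Dbp, and that with r below -0.9 from 25 to 43 for Arntl and from 9 to 10 for Dbp. With prostate Tug1-/- means from 2 mice and no value per mouse, the error of each ratio was not estimated here.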

Other observations

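The antisense gene C920021L13Rik, whose span covers all of Ciart, had the same sign of log2 ratio as Ciart in 5 of 8 tissues, among them heart (0.17 beside 0.65), MEFs (0.14 beside 0.39), liver (0.02 beside 0.70) and spleen (-0.19 beside -0.16). In wild-type and Tug1-/- eyes it was at 4.31 and 2.97 TPM (log2 ratio -0.52) and at 1.17 and 0.654 TPM in brain (-0.76), 2 tissues where the log2 ratios of Ciart were 0.05 and -0.02. In testes it was at 10.7 and 10.0 TPM, above Ciart at 8.27 and 9.62 TPM. Without strand in the library kit, how reads of their shared stretch were divided between both genes was not tested. Sphk2, which overlaps the end of Dbp, was at 18.8 and 14.0 TPM in liver (log2 ratio -0.42), where Dbp was at -0.01.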
